A study of Mus musculus with 6 samples.

Results

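The genes described here are 44 mouse genes that encode the machinery of mitosis and the spindle. They were chosen by name, with earlier results of these data known, and were read from the table of gene counts of E14.5 lenses. All 44 were among the 13024 genes of that table, and all 44 were among the 12879 genes that passed the filter on low counts and were tested. They include the kinase and cyclins that start mitosis, the Aurora and Polo kinases, the spindle checkpoint, centromere and kinetochore proteins, the chromosomal passenger complex, spindle motors, proteins of cytokinesis, chromosome condensation and topology, and the machinery of anaphase.

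The libraries were polyA RNA-Seq of lenses of mixed C57BL/6 and FVB background at E14.5 (embryonic day), with 3 pools labelled control and 3 labelled Gata3 CKO, and 10 lenses of 5 embryos in a pool. CKO embryos were Gata3 f/f with Pax6-Cre, which removes exon 4 of Gata3, a gene for a zinc finger transcription factor. Cre in this line is driven by a Pax6 enhancer of the ocular epithelium with the P0 promoter, in the head ectoderm that forms lens and cornea, and some scattered retinal cells also express it. The control pools lacked Cre. Their genotype is wild type in the sample labels, f/wt in the Results of the study and f/f in its Methods, so the Cre transgene as well as the deletion differed between the groups. Lenses of several embryos were pooled, so the spread between pools is not the spread between animals. The question put to these genes was whether Gata3 CKO lenses, in which cell cycle exit had been studied, differed from control lenses in the transcripts of dividing cells.

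Each library held 15157230 to 18811104 counts, and the 44 genes took 0.430% to 0.724% of them. For Gata3, the controls gave 202, 386 and 156 counts, and the pools labelled CKO 910, 1064 and 894, each in the order of replicates 1 to 3. Counts of the targeted gene were therefore higher in the libraries labelled CKO, and since 1 count stands for a whole gene, these values do not show whether exon 4 was present. The groups are named by their labels. The 16 crystallin genes, which encode the main proteins of the lens, made up 9.31%, 16.5% and 6.63% of the control libraries and 7.27%, 5.96% and 5.47% of those labelled CKO. Markers of other tissue were present in every library. The 20 retina markers, of which 20 were tested, summed to at least 1381 CPM in each. The 12 of 14 mesenchyme markers that were tested summed to at least 357 CPM. Control replicate 2 stood apart from the other libraries in the results below, and log2 fold changes without it are given for each role group. It was the lowest library for 44 of the 44 genes, so values without it are lower by construction. Fewer cells of a type and less RNA per cell cannot be told apart in pooled tissue.

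In a dividing cell, Cdk1 with its cyclins starts mitosis, condensins and topoisomerase fold and untangle the chromosomes, and the kinetochores attach them to the spindle. The checkpoint holds the anaphase-promoting complex until every chromosome is attached, and that complex then marks securin and cyclin B for destruction so that the sister chromatids part. Transcripts of these genes are made mostly in late S, G2 and M phase, and many of their promoters hold a cell cycle genes homology region (CHR), bound by the MuvB complex, downstream of a CCAAT box, bound by NF-Y. In the lens, division takes place in the anterior epithelium, and cells that become fibres leave the cell cycle.

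Promoter sequences show what most of these genes share beside their function. RefSeq promoter windows of the GRCm38.p6 build, from 250 bases before to 50 bases after the annotated start, were found for 37 of the 44 genes. The letters TTTGAA and TTCGAA were searched for the CHR, CCAAT for the NF-Y box, and AGATAA or AGATAG or TGATAA or TGATAG for a GATA motif, each on both strands. The next 6 promoters are those of the gene with the highest mean level in its role group, where the table held one, and run 5′ to 3′ from 150 bases before the start to 30 bases from it on, with CHR and CCAAT matches in capitals.
Bub1b (chr2:118598061-118598240, forward strand): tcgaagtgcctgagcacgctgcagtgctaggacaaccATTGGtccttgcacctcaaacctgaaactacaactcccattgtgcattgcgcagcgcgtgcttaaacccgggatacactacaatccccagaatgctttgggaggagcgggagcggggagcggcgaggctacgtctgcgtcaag
Cenpf (chr1:189688057-189688236, reverse strand): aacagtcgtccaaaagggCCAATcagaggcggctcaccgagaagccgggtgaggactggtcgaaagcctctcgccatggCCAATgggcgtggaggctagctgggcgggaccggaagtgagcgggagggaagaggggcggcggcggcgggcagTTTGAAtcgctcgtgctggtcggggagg
Kif11 (chr19:37376232-37376411, forward strand): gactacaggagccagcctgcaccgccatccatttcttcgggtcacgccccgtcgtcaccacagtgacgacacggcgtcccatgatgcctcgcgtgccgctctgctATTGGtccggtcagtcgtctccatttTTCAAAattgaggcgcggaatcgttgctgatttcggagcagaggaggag
Prc1 (chr7:80294301-80294480, forward strand): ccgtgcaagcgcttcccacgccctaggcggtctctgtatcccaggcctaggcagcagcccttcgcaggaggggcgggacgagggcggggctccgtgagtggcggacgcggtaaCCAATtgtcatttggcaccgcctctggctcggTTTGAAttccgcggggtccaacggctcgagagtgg
Top2a (chr11:99024160-99024339, reverse strand): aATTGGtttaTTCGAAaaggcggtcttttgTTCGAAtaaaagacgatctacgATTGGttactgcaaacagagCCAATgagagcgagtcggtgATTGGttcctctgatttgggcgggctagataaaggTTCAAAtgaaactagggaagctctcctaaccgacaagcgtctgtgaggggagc
Cdc20 (chr4:118437314-118437493, reverse strand): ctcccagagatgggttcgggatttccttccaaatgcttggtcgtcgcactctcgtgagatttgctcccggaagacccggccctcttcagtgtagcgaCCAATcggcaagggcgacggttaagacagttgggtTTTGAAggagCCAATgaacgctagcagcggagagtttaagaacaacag
Kif11, Prc1, Cenpf and Cdc20 each hold 1 CHR match close to the start, and a CCAAT match before it. Top2a shows 3 CHR and 4 CCAAT matches in the printed stretch. Bub1b shows only its CCAAT match, since both of its CHR matches lie outside the printed stretch. Prc1 has 2 annotated starts, and the more upstream is shown. For Ccna2, Tpx2 and Incenp no sequence is given. The promoter of Pttg1 was added after its values were seen, because it was the gene that differed most between the groups.
Pttg1 (chr11:43425952-43426131, reverse strand): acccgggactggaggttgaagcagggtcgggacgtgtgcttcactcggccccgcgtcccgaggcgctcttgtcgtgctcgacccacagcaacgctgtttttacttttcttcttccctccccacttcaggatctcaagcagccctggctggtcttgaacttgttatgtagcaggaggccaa
Its window holds neither motif. The printed stretch lies inside the gene as GENCODE places it, at 43420250 to 43426251. The GENCODE start is upstream of the RefSeq window, so the sequence before that start was not searched.

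Over the 37 genes, a CHR match was found in 29 (78.4%), against 15.7% of the 10006 tested genes with a window and 21.7% of all 27025 genes in the promoter table. A CCAAT match was found in 28 (75.7%), against 43.3% and 41.1%. Both were found in 26 genes (70.3%), against 6.71% and 8.61%. In 26 of the 29 genes with a CHR match, at least 1 such match lay within 50 bases of the start. Some of these genes also had matches farther away, and the share of other genes with a match so placed was not counted. In 1 of the 39 windows of these genes a CHR and a CCAAT match shared a base. Only CHR matches were found for Anln, Kif2c and Ndc80, and only CCAAT matches for Ccnb1 and Cenpe. Birc5, Mad2l1, Ncaph, Nuf2, Nusap1 and Pttg1 had neither. A GATA match was found in 9 genes (24.3%), against 21.0% of the tested genes and 33.0% of the table. Of 97 windows of further mitosis genes, 43.3% held a CHR match, 56.7% a CCAAT match and 26.8% both. Of 36 windows of DNA replication genes, which peak earlier in the cell cycle, 19.4% held a CHR match, 63.9% a CCAAT match and 13.9% both. A match is a run of letters and not a bound site. Windows follow the RefSeq start. For some genes, Kif2c and Pttg1 among them, the window lies inside the gene as GENCODE places it. A missing match there says nothing of the sequence at the GENCODE start.

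**Figure D1:**
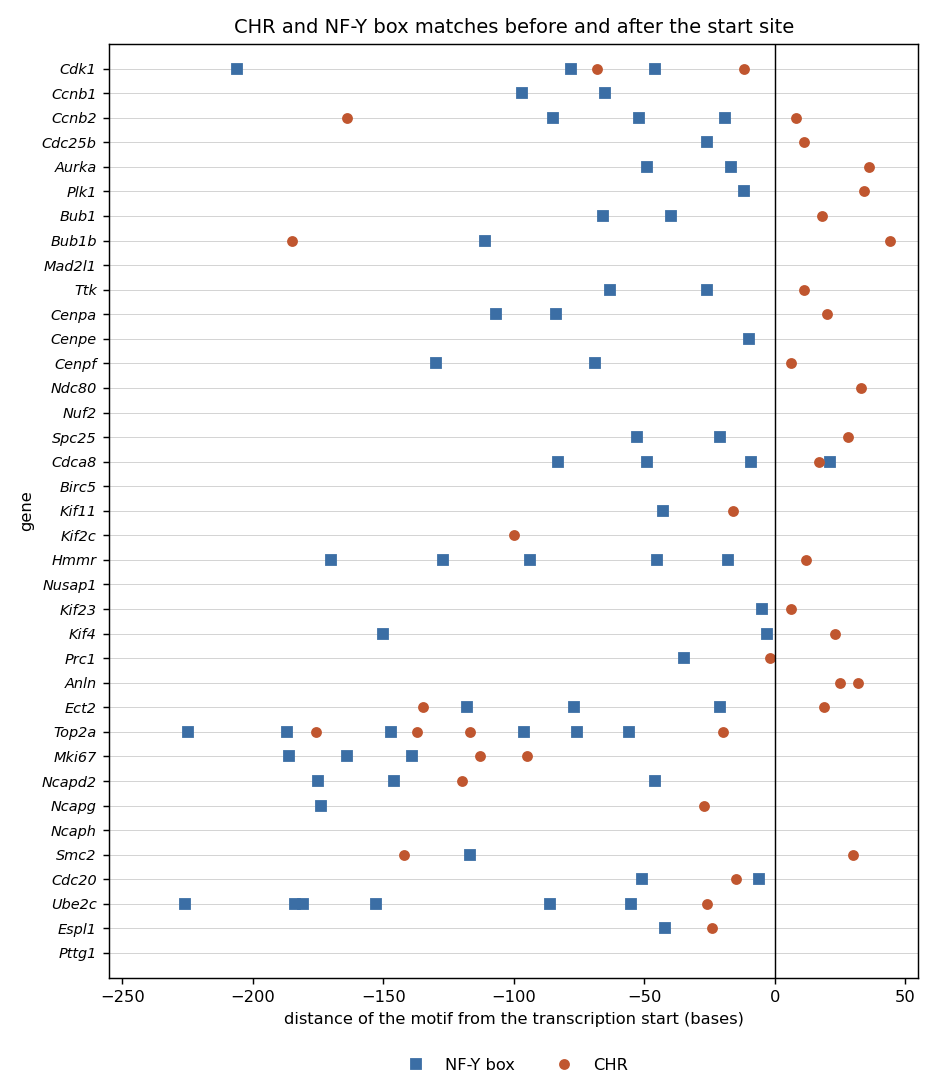
Positions of CHR (orange circles) and NF-Y box (blue squares) matches in the promoter windows of 37 mitosis and spindle genes, by distance of the middle of the match from the annotated start in bases. For Ect2 and Prc1, which have 2 windows, the one at the lower coordinate is drawn. At least 1 CHR match lies within 50 bases of the start in 26 of the 29 genes that have one, and 6 genes have no match of either kind.

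Between the groups, these genes differed little. The median log2 fold change of the libraries labelled CKO against control was 0.04 over the 44 genes and 0.00 over all genes tested, and single genes ran from -0.11 (Cdc25c) to 0.43 (Pttg1). Values were above 0 for 35 genes (79.5%, against 50.6% of all genes tested) and below 0 for 9. Without control replicate 2 they were above 0 for 6 genes and below 0 for 38. With the quasi-likelihood test of edgeR, adjusted by Benjamini-Hochberg over all genes tested, 0 of the 44 had an adjusted p under 0.05, as had 0% of all genes, and the lowest adjusted p among them was 0.967. At an unadjusted p under 0.05, 1 of the 44 was higher in CKO (Pttg1), against a background of 1.3% of all genes, and 0 were lower, against 2.24%. DESeq2 called 85 of all genes at an adjusted p under 0.05, and 0 of the 44. The 3 values of each group did not overlap for 2 genes that were higher in CKO, Pttg1 and Mad2l1 (3.67% of all genes), and for 0 that were lower (4.69% of all genes). For a single gene in 3 against 3 pools, the exact two-sided permutation test cannot give a p below 0.1.

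The precision of the fit sets the size of difference that could have been seen. The standard error of the log2 fold change had a median of 0.14 over the 44 genes (0.087 to 0.19). The 95% interval lay within a 2-fold difference in either direction for all 44 genes, against 86.2% of all genes tested. Within a 1.5-fold difference it lay for 42 genes, all but Pttg1 and Spc25, against 67.8% of all genes. Within a 1.25-fold difference it lay for 7 genes, against 31.8% of all genes. The lowest bound was -0.49, for Cdc25c, and the highest 0.73, for Spc25. Counts of these genes ranged from 200, for Pttg1 in control replicate 2, to 16381 in a library.

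**Figure D2:**
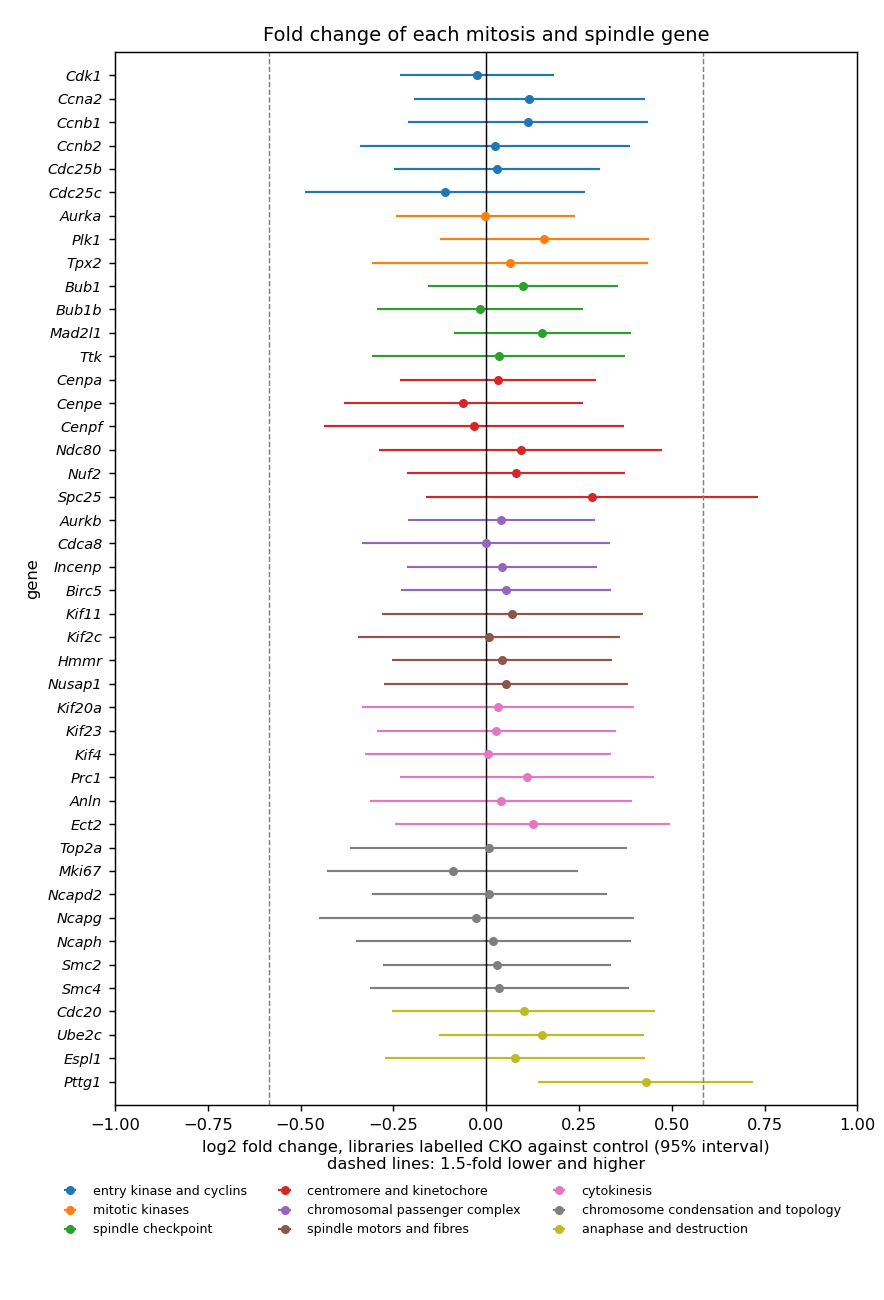
Log2 fold change of the libraries labelled CKO against control for each of 44 mitosis and spindle genes, with the 95% interval of edgeR's quasi-likelihood fit (3 pools in each group) and colours for role groups. Intervals of 43 genes cross 0, that of Pttg1 runs from 0.14 to 0.72, and those of Pttg1 and Spc25 pass the dashed line at 1.5-fold.

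The kinase and cyclins that start mitosis were represented by Cdk1, Ccna2 (cyclin A2), Ccnb1 and Ccnb2 (B-type cyclins), and Cdc25b and Cdc25c, phosphatases that activate Cdk1. Values are given in CPM, counts scaled to a common library size after TMM normalization, and as mean ± SD of 3 pools. Ccna2 had 213, 165 and 233 CPM in control replicates 1, 2 and 3, and 212, 216 and 234 in CKO replicates 1, 2 and 3. Control replicate 2 was the lowest, and the other 5 libraries overlapped. The log2 fold change of Ccna2 was 0.12 (SE 0.13, 95% interval -0.20 to 0.43), the highest of the 6. Cdc25c had 29.8, 21.2 and 32.0 CPM in control and 25.4, 26.4 and 25.1 in CKO, so that all CKO pools lay between control replicate 2 and the other 2 controls. Its log2 fold change of -0.11 (SE 0.16, interval -0.49 to 0.27) was the lowest of the 44. Cdk1 itself had 98.1 ± 8.86 CPM in control and 96.5 ± 4.25 in CKO, with the groups overlapping. Leaving out control replicate 2, the 6 genes had log2 fold changes from -0.26 (Cdc25c) to -0.00 (Ccna2 and Ccnb1). Of these 6 genes, with all libraries, 4 had values above 0 and 2 below, and 0 passed an unadjusted p under 0.05.

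Aurka (Aurora A), Plk1 (Polo-like kinase) and Tpx2, which activates Aurora A on spindle microtubules, build the poles and the spindle. Tpx2 had 216, 164 and 236 CPM in control and 199, 198 and 246 in CKO. The CKO pools fell inside the range of the controls except for CKO replicate 3, the highest library. Plk1 had 69.9, 60.6 and 82.3 CPM in control and 77.1, 77.5 and 82.6 in CKO. Control replicate 3 lay above the other 2 CKO pools and just under CKO replicate 3, and the log2 fold change was 0.16 (SE 0.12, interval -0.13 to 0.44). Aurka gave 55.4, 46.6 and 55.9 CPM in control and 53.5, 48.8 and 55.5 in CKO. Both groups averaged 52.6 CPM, and the log2 fold change was -0.00 (SE 0.10, interval -0.24 to 0.24). With control replicate 2 left out, the log2 fold changes were 0.07 for Plk1, -0.06 for Tpx2 and -0.07 for Aurka.

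The spindle checkpoint genes were Bub1 and Ttk, kinases of the checkpoint, Bub1b, which encodes BubR1, and Mad2l1, which encodes Mad2, the inhibitor that holds Cdc20. Bub1b had 157, 120.2 and 144 CPM in control and 129.7, 134 and 153 in CKO. The groups overlapped, and the log2 fold change was -0.02 (SE 0.12, interval -0.30 to 0.26). Mad2l1 had 77.3, 62.9 and 77.0 CPM in control and 78.3, 78.6 and 84.4 in CKO. All CKO pools were above all control pools, though CKO replicate 1 was close to control replicates 1 and 3. Its log2 fold change was 0.15 (SE 0.10, interval -0.09 to 0.39), with an unadjusted p of 0.176 in edgeR. Bub1 averaged 98.3 ± 12.7 CPM in control and 105 ± 5.51 in CKO, and Ttk 51.1 ± 9.44 and 52.4 ± 2.78. When control replicate 2 was left out, the log2 fold change was 0.07 for Mad2l1, 0.01 for Bub1, -0.11 for Bub1b and -0.10 for Ttk.

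Centromere and kinetochore genes were Cenpa, the histone H3 variant of centromeres, Cenpe, a kinesin that carries chromosomes, Cenpf, a large outer kinetochore protein, and Ndc80, Nuf2 and Spc25, subunits of the complex that binds microtubules. Cenpf had 318, 228 and 353 CPM in control and 297, 262 and 320.0 in CKO. All CKO pools lay within the range of the controls, and the log2 fold change was -0.03 (SE 0.17, interval -0.44 to 0.37). Cenpe had 200.3, 147 and 203 CPM in control and 174, 164 and 189 in CKO, again inside the control range, with a log2 fold change of -0.06 (SE 0.14, interval -0.38 to 0.26). Spc25 had 66.2, 44.2 and 75.4 CPM in control and 74.0, 75.0 and 77.5 in CKO. The CKO pools were close to each other, while the controls spread widely, and control replicate 3 lay above CKO replicates 1 and 2. The log2 fold change of Spc25 was 0.28 (SE 0.19, interval -0.16 to 0.73), the largest but for Pttg1, and 0.10 without control replicate 2. For its partners Ndc80 and Nuf2 it was 0.09 (SE 0.16) and 0.08 (SE 0.12), and -0.03 for both without control replicate 2. Cenpe, Cenpf and Cenpa then gave -0.19, -0.18 and -0.05.

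The chromosomal passenger complex, which corrects faulty attachments and later marks the division plane, is made of the kinase Aurkb (Aurora B), the scaffold Incenp, Cdca8 (borealin) and Birc5 (survivin). Log2 fold changes of the 4 genes ran from -0.00 to 0.05. Incenp had 143, 112 and 142 CPM in control and 137, 129.8 and 142 in CKO. Birc5 had 68.0, 57.6 and 76.8 CPM in control and 65.7, 69.3 and 75.2 in CKO, and Cdca8 98.3, 73.4 and 101 in control and 85.1, 86.6 and 101 in CKO. In all of these the groups overlapped and control replicate 2 was lowest. Summed over the 4 genes, the level was 366 ± 51.4 CPM in control and 375 ± 18.5 in CKO. Leaving out control replicate 2 gave log2 fold changes of -0.12 (Cdca8) to -0.04 (Birc5).

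Spindle motors and fibres were represented by Kif11, the kinesin that pushes the poles apart, Kif2c, which takes microtubules apart at centromeres, and the microtubule-binding Hmmr and Nusap1. Kif11 had 199, 146 and 219 CPM in control and 203, 191 and 199 in CKO. Kif2c had 76.9, 56.1 and 77.0 CPM in control and 68.1, 63.8 and 79.4 in CKO. Neither gene separated the groups, and their log2 fold changes were 0.07 (SE 0.15, interval -0.28 to 0.42) and 0.01 (SE 0.15, interval -0.35 to 0.36). Hmmr averaged 78.2 ± 12.8 CPM in control and 80.6 ± 1.36 in CKO, and Nusap1 111 ± 20.6 and 115 ± 4.88. All 4 log2 fold changes were below 0 without control replicate 2, from -0.12 (Kif2c) to -0.07 (Kif11).

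Of the cytokinesis genes, Prc1 bundles the microtubules of the central spindle, Kif4, Kif20a and Kif23 are motors that work there, Ect2 switches on RhoA at the division plane, and Anln (anillin) holds the contractile ring. Prc1 had 144, 109 and 158 CPM in control and 142, 139 and 163 in CKO. Ect2 had 115, 80.5 and 122 CPM in control and 115, 109 and 122 in CKO. Both overlapped between the groups, with log2 fold changes of 0.11 (SE 0.14, interval -0.23 to 0.45) and 0.13 (SE 0.16, interval -0.24 to 0.50). Kif4 had 98.2, 71.8 and 104 CPM in control and 92.6, 89.6 and 93.2 in CKO. Its CKO pools lay within the control range, and the log2 fold change was 0.01 (SE 0.14, interval -0.33 to 0.34). All 6 genes had values above 0, the highest being 0.13, and 0 passed an unadjusted p under 0.05. All 6 were below 0 without control replicate 2, from -0.13 (Kif4) to -0.02 (Prc1 and Ect2).

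Chromosome condensation and topology held the most abundant of these transcripts. Top2a (topoisomerase II alpha) and Mki67 (the Ki-67 protein that coats mitotic chromosomes) together made 23.9% of the summed CPM of the 44 genes. The others were the condensin subunits Smc2, Smc4, Ncapd2, Ncapg and Ncaph. Top2a had 846, 619.8 and 915 CPM in control and 802, 736 and 852 in CKO, with a log2 fold change of 0.01 (SE 0.16, interval -0.37 to 0.38). Mki67, used widely as a marker of dividing cells, had 764, 568 and 807 CPM in control and 706, 651 and 653 in CKO. The CKO pools of Mki67 were above control replicate 2 and below the other 2 controls, and the log2 fold change was -0.09 (SE 0.14, interval -0.43 to 0.25). Smc4 had 317, 239.7 and 359 CPM in control and 309, 302 and 327 in CKO, which overlap. The 7 genes summed to 2502 ± 466 CPM in control and 2476 ± 102 in CKO. Their log2 fold changes ran from -0.22 (Mki67) to -0.09 (Smc2) without control replicate 2, with -0.13 for Top2a.

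In anaphase, Cdc20 activates the anaphase-promoting complex, Ube2c supplies it with ubiquitin, Espl1 (separase) cuts cohesin, and Pttg1 (securin) holds separase back until it is destroyed. Cdc20 had 107, 79.1 and 116 CPM in control and 105, 102 and 118 in CKO. Espl1 had 88.6, 63.5 and 94.1 CPM in control and 90.5, 84.8 and 84.6 in CKO. These overlapped between the groups, with log2 fold changes of 0.10 (SE 0.15, interval -0.25 to 0.46) and 0.08 (SE 0.15, interval -0.27 to 0.43). For Ube2c the log2 fold change was 0.15 (SE 0.12, interval -0.13 to 0.42). Without control replicate 2 the values were -0.03 for Cdc20, -0.07 for Espl1 and 0.06 for Ube2c.

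Pttg1 was the gene with the largest difference. It lies on the reverse strand of chromosome 11 (43420250 to 43426251 of GRCm38) and shared no exon bases with another annotated gene. Its raw counts were 257, 200 and 289 for the controls, against 298, 399 and 443 for the pools labelled CKO, replicate 1 first. Scaled to library size, these were 16.3, 14.1 and 16.1 CPM in control and 19.3, 20.3 and 23.1 in CKO. All CKO pools were above all control pools, with an exact two-sided permutation p of 0.1, the smallest that 3 against 3 pools can give. The log2 fold change was 0.43 (SE 0.12, interval 0.14 to 0.72), with an unadjusted p of 0.0101 and an adjusted p of 0.967 from edgeR's quasi-likelihood test, so the difference did not pass the correction over all genes. Leaving out each library in turn gave log2 fold changes of 0.35 to 0.48, with 0.38 without control replicate 2. Measured within a library against the mean of the other 43 genes, the difference between the groups was 0.37 on the log2 scale for Pttg1, against 0.26 for Spc25, the next, and -0.16 for the lowest gene. Espl1, whose protein securin holds, gave 0.03 on that scale.

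**Figure D3:**
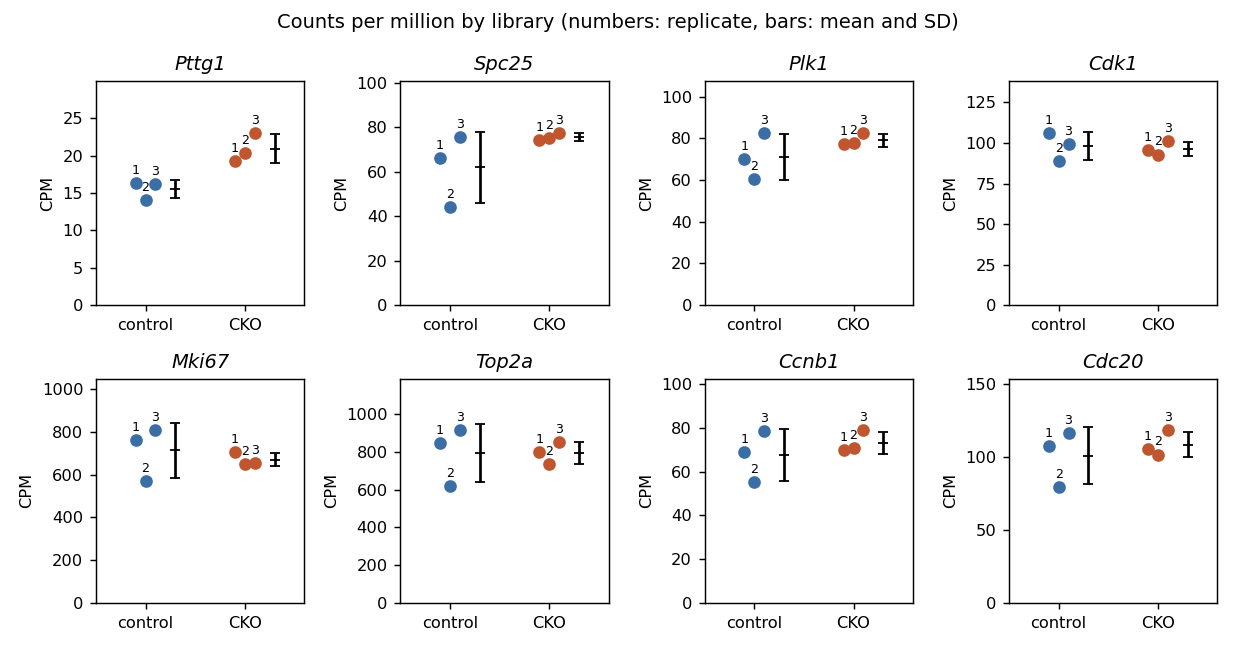
CPM in each library for 8 of the 44 genes, with replicate numbers above the points and the mean and SD of 3 pools beside them (blue control, orange CKO). Only Pttg1 among these has all CKO pools (19.3 to 23.1 CPM) above all controls (14.1 to 16.3 CPM), and control replicate 2 is the lowest library in each panel.

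Compared per length of exons, in CPM per kilobase averaged over all 6 libraries, Top2a was the highest at 88.2, followed by Mki67 at 68.7, Smc4 at 59.3 and Cdc20 at 56.0. The median of the 44 genes was 20.3 CPM per kilobase. The lowest were Cdc25c at 5.42, Ndc80 at 8.23, and Pttg1 at 9.10, rank 42 of 44. Exon lengths came from all annotated exons of a gene, so genes with long exons that the lens does not use are set too low. Of the 44 genes, 14 shared exon bases with another annotated gene, and 10 of these with a gene that was tested, mostly on the opposite strand. The study's methods describe the libraries as strand-specific. Whether the counting used the strand was not given in the sources used here, so the counts of such genes as Ccna2, Prc1, Kif4 and Cdc20 are uncertain by an unknown amount. Exon lengths and shared bases were read from GENCODE, while fragments were counted on RefSeq genes, so the overlaps met in counting can differ.

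The larger variation ran between libraries and not between the groups. Control replicate 2 was the lowest of the 6 libraries for 44 of the 44 genes, against 31.6% of all genes tested. Its log2 level minus the mean of control replicates 1 and 3 had a median of -0.46 over the 44 genes, from -0.68 (Spc25) to -0.20 (Pttg1), while the median over all genes tested was 0.01. The highest library was control replicate 3 for 23 genes, CKO replicate 3 for 15 and control replicate 1 for 6. Summed over the 44 genes, the level was 6534, 4945 and 7015 CPM in control replicates 1, 2 and 3, and 6237, 6000 and 6599 CPM in CKO replicates 1, 2 and 3. All CKO pools lay within the range of the controls, which averaged 6165 ± 1083 CPM against 6279 ± 302 in CKO. The genes moved together: the SD of a gene over the 6 libraries had a median of 0.19 on the log2 scale, and 0.064 once the mean of the other 43 genes in each library was taken off. The genes share libraries and normalization, so these values describe the 6 libraries.

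**Figure D4:**
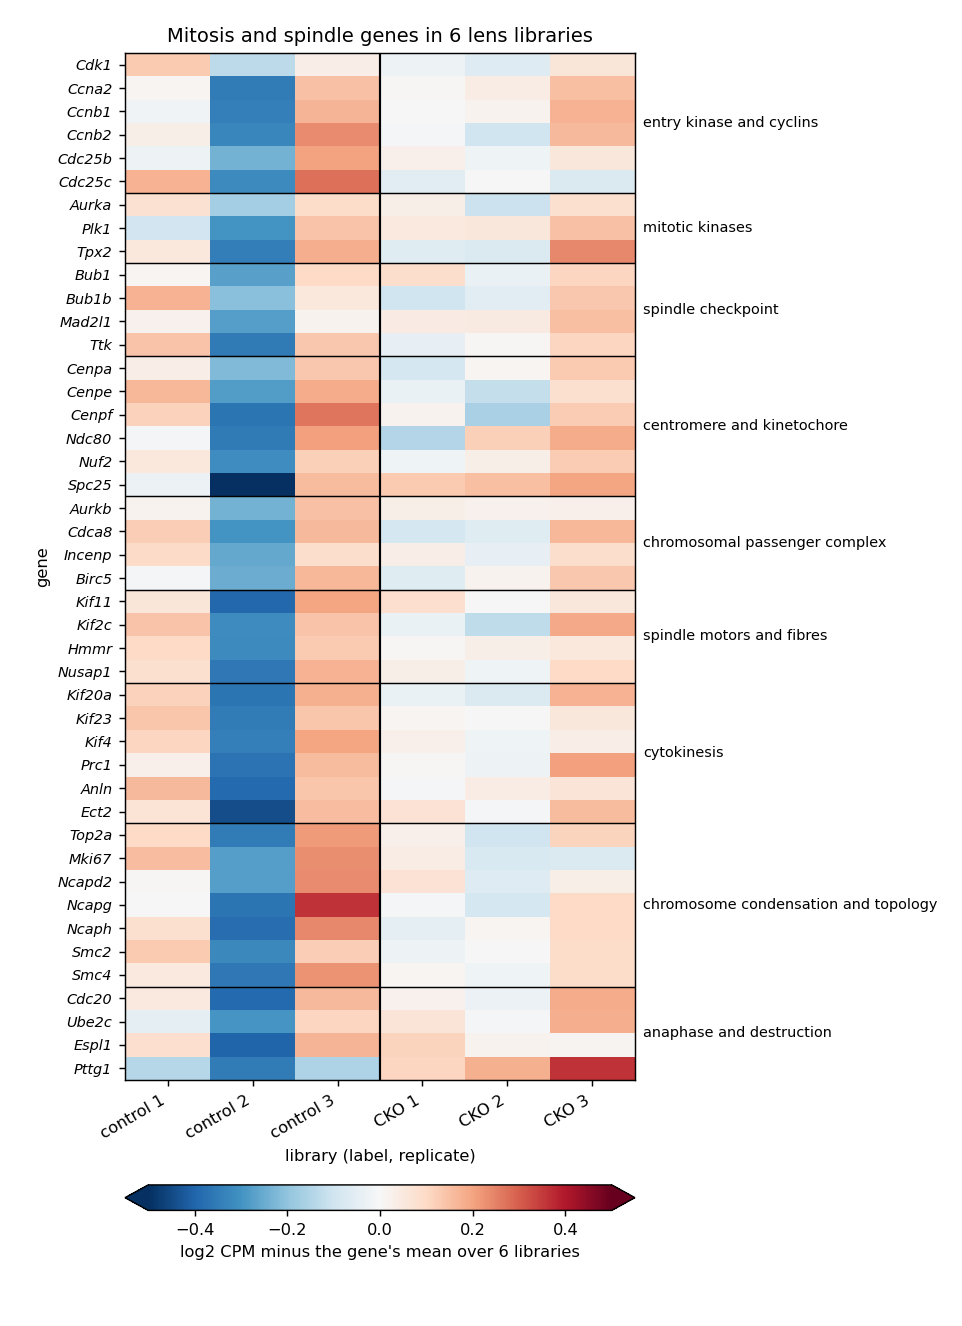
Log2 CPM of each of 44 mitosis and spindle genes in each of the 6 libraries, minus the mean of that gene over the 6, in role groups. Control replicate 2 is the blue column, lowest for all 44 genes, and Pttg1, in the bottom row, is the gene with all CKO libraries above all control libraries by the widest margin.

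Genes with and without the promoter motifs were lowest in control replicate 2 alike, since all 44 were. The difference of control replicate 2 had a median of -0.46 over the 26 genes with both motifs and of -0.36 over the 6 with neither. The log2 fold change between the groups had medians of 0.03 and 0.07 over these genes, and Pttg1 is 1 of the 6. Both classes rest on the RefSeq windows alone.

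DNA replication genes were read as another set of genes used by dividing cells. In all, 38 of 44 replication genes were lowest in control replicate 2 as well, with a mean log2 level of -0.34 against the other controls. The mean log2 CPM of the mitosis genes minus that of the replication genes was 0.654, 0.570 and 0.670 for the control pools, and 0.662, 0.629 and 0.587 for the CKO pools, in the order of their replicate numbers. The groups overlapped, at 0.631 ± 0.054 and 0.626 ± 0.038. Mcm2, a subunit of the replicative helicase and the replication gene with the lowest p, had 222 ± 7.35 CPM in control and 244 ± 15.8 in CKO (unadjusted p = 0.120 in edgeR).

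Tissue markers also differed between these libraries. The 20 retina markers summed to 2459, 1381 and 3644 CPM in control replicates 1, 2 and 3 and to 2712, 2324 and 3186 in CKO, and 20 of 20 were lowest in control replicate 2. From the lowest to the highest library, their sum gave the same order as that of the mitosis genes except that control replicate 1 and CKO replicate 1 changed places. The 12 markers of lens epithelium summed to 3672, 5316 and 2877 CPM in control and 3445, 3737 and 3180 in CKO, highest in control replicate 2. Col4a1 alone gave 2311 CPM of that highest sum. Pax6, Sparc, Mab21l1, Krt8 and Krt18 did not have their highest level in control replicate 2, while the other markers of the list did. The 12 tested mesenchyme markers ran from 357 to 4250 CPM, with the highest sums in CKO replicate 2 and control replicate 1, an order unlike that of the mitosis genes. Crystallins were highest in control replicate 2, as given above. The part of retina, mesenchyme or lens fibre content in the levels of the mitosis genes was not tested.

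**Figure D5:**
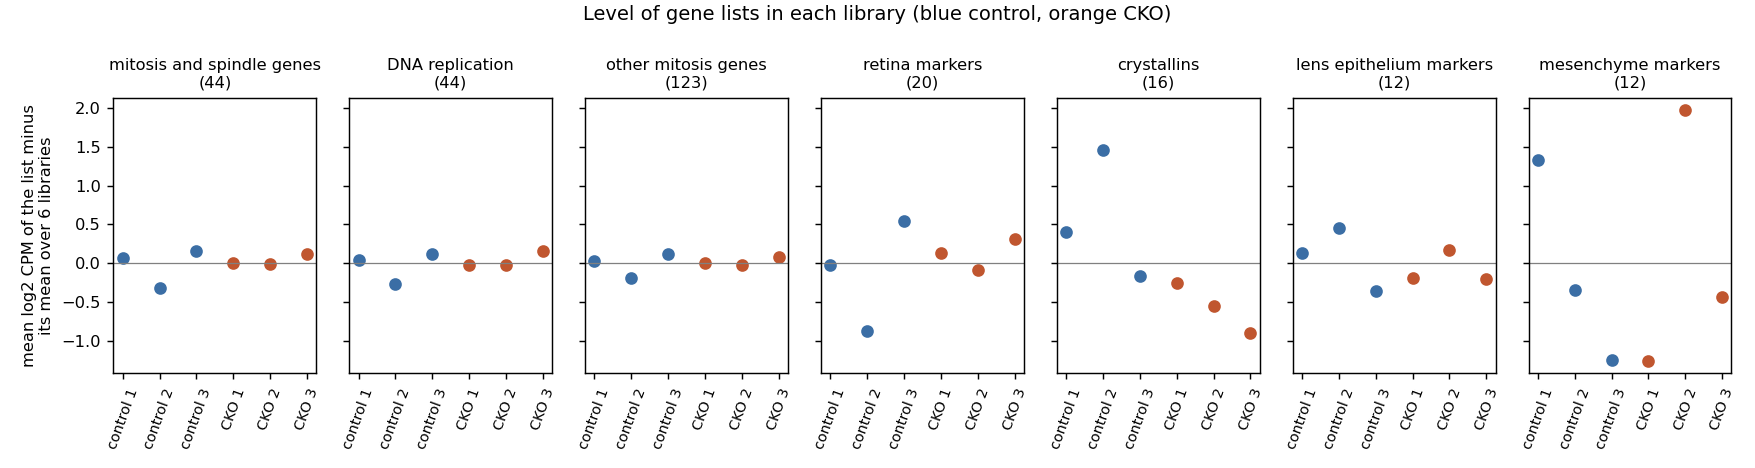
Mean log2 CPM of gene lists in each library minus the mean of the 6 libraries, with the number of genes in brackets (blue control, orange CKO). Control replicate 2 is lowest for the mitosis, DNA replication and retina lists and highest for crystallins and lens epithelium markers.

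The direction of these small differences changed for most genes when the lowest control pool was left out. That pool was the lowest library for 44 of the 44 genes, so a downward shift was set by the choice to drop it. The values without it describe this dependence and are no separate test. Without control replicate 2, the median log2 fold change of the 44 genes was -0.07, and 29 genes changed sign. At an unadjusted p under 0.05, 3 genes were then lower in CKO (Cdc25c, Cenpe and Mki67, against a background of 2.47% of all genes) and 1 was higher (Pttg1, against 3.8%). Their log2 fold changes were -0.26 for Cdc25c, -0.19 for Cenpe, -0.22 for Mki67 and 0.38 for Pttg1, and the lowest adjusted p in edgeR was 0.634. Without control replicate 3, the median was 0.15, and 3 genes were higher (Plk1, Pttg1 and Spc25, against 3.62%), with log2 fold changes of 0.28, 0.46 and 0.45, against 0.07, 0.38 and 0.10 without control replicate 2. With retina and mesenchyme marker levels added to the model, 2 genes were higher (Pttg1 and Spc25, against 5.69%), 3 were lower (Cdc25c, Cenpe and Mki67, against 6%), and the median was -0.03. That fit leaves few degrees of freedom in 6 libraries, and the lowest adjusted p among the 44 genes was 0.0917, for Pttg1.

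Further genes of mitosis were read from 6 lists of kinetochore and checkpoint, spindle, cytokinesis, cohesin and condensin, anaphase-promoting complex and entry control genes. They held 124 genes, of which 123 were tested, and the median log2 fold change was 0.03. At an unadjusted p under 0.05 in edgeR, 0 were higher in CKO, against 1.3% of all genes, and 1 was lower, against 2.24%, and 0 passed the adjusted threshold. That gene was Cenpx, a small subunit of the centromere, with 18.2 to 21.0 CPM in control and 15.9 to 16.5 in CKO, where the groups did not overlap. Its log2 fold change was -0.26 (SE 0.11, unadjusted p = 0.0457). In the other lists the gene with the lowest p did not reach that threshold. These were Cks2, a binding partner of Cdk1, with a log2 fold change of 0.31 (SE 0.15), Anapc10, a subunit of the anaphase-promoting complex, with 0.21 (SE 0.11), and Cit, a kinase of cytokinesis, with -0.21 (SE 0.13). For Troap, a spindle protein, it was 0.19 (SE 0.14), and for Wapl, which releases cohesin, -0.06 (SE 0.07). Control replicate 2 was the lowest library for 92 of these 123 genes, against 44 of the 44, and for 6 of the 17 genes in the list of the anaphase-promoting complex and its regulators, where the share over all genes tested was 31.6%.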

How the data were processed

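PolyA RNA-Seq libraries of 6 pools of E14.5 lenses were analysed, 3 for control and 3 for CKO. Per the submitters' processing notes and the study's methods, the authors trimmed reads with Trim Galore, aligned them to mm10 with TopHat 2.0.13 and counted fragments per RefSeq gene with HTSeq 0.6.1; FPKM from Cuffdiff 2.2.1 chose the genes kept in the table. The deposited values are these raw counts, without normalization. HTSeq's strand and overlap options were not given in the sources used here. Columns of samples outside the series numbered 0. Replicate numbers are those of the sample titles.

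The 12879 genes that reached 10 counts in 3 or more libraries were fitted together with the robust quasi-likelihood method of edgeR 4.0.16, under R 4.3.3 and with TMM factors, and p-values were adjusted by Benjamini-Hochberg at 0.05. Log2 CPM used a prior count of 1. Alternatives were DESeq2 1.42.0, limma voom (3.58.1), other scalings and filters, a replicate block, covariates and each library left out. Libraries held 15157230 to 18811104 counts, and p-values measure only the spread between pools. Positions and exon lengths came from GENCODE M21 (GRCm38, the assembly of mm10), and promoters from RefSeq (GRCm38.p6). Python 3.11.15, pandas 2.3.3 and, for figures, matplotlib 3.10.9 were used. The fits were tested on simulated data.

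The genes, lists, motifs and alternatives were chosen with earlier results of these data known. In each role group, values per library are given for the gene with the highest mean CPM, the lowest p, and the lowest and highest log2 fold change. Of the other lists, the gene with the lowest p is named, with regulators of mitotic transcription, Gata3 and marker lists. Other genes of the 44 named with means, and the promoter of Pttg1, were chosen after their values were seen. Lists of lens fibre, blood, vessel, macrophage, pigment cell and surface ectoderm markers were computed and are given with the closing values.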

Additional observations from a re-analysis of the deposited data

How the results depend on the processing

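The fold changes of these genes are small beside their errors, so their signs moved with the processing while no call was gained: the lowest adjusted p of any of the 44 genes over 17 alternatives was 0.0917. Pttg1 kept a log2 fold change of 0.35 to 0.53 and an unadjusted p of 0.00421 to 0.0439 in all of them. Genes called over the whole table, 0 as reported, numbered 1 with total counts only, 107 with the DNA replication list as a covariate, 457 with the retina and mesenchyme lists as covariates, and 85 in DESeq2. Genes with an unadjusted p under 0.05, 457 as reported, numbered 799 and 1506 with these covariates, and 5 of the 44 rather than 1 passed with the retina and mesenchyme lists. Leaving out each library in turn gave 0 to 1 called genes, 271 to 1234 at an unadjusted p under 0.05, 1 to 4 of the 44, and a median over the 44 of -0.07 when control replicate 2 was left out to 0.15 when control replicate 3 was, with signs changed for 4 to 29 genes. Signs changed for 20 genes with the DNA replication covariate (median -0.03), 23 with the retina and mesenchyme covariates, 7 with total counts only, which moved the median of all genes to 0.10, and 0 to 3 under the others. With the replicate number as a block, 516 genes had an unadjusted p under 0.05 in edgeR, 0 were called, and 1 of the 44 passed. The deviations of same-numbered pools from their group means correlated at -0.49, 0.09 and 0.44. With 3 pools in a group, such correlations cannot show whether pools were paired. The causes were not tested.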

Other observations

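Regulators of mitotic transcription, which act through the CHR and the CCAAT box, were measured in the same libraries. The list of 16 held subunits of MuvB and DREAM (Lin9, Lin37, Lin52, Lin54, Rbbp4, E2f4, E2f5, Tfdp1, Tfdp2, Rbl1, Rbl2), Mybl2 (B-Myb), Foxm1, and the NF-Y subunits Nfya, Nfyb and Nfyc. By edgeR, 0 of the 16 had an unadjusted p under 0.05 in either direction and 0 an adjusted one, and the median log2 fold change was 0.02. Foxm1, a transcription factor of late cell cycle genes, had 106, 83.4 and 122 CPM in control replicates 1, 2 and 3 and 104, 98.0 and 105 in CKO replicates 1, 2 and 3. Mybl2 had 28.6, 22.1 and 30.5 CPM in control and 28.8, 31.7 and 28.4 in CKO. Both were lowest in control replicate 2, as were 9 of the 16, and neither separated the groups. E2f5, the member of the list with the lowest p, had 53.8 ± 6.02 CPM in control and 59.0 ± 2.31 in CKO, with a log2 fold change of 0.13 (SE 0.10, interval -0.10 to 0.37).

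Other marker lists gave these values at an unadjusted p under 0.05 in edgeR, where 1.3% of all genes tested were higher and 2.24% lower. The lists were chosen with earlier results of these data known, so their counts are a description and no test. Of 16 crystallins 10 were lower in CKO, and of 18 tested lens fibre markers 11 were lower and 1 was higher, while of 12 lens epithelium markers 1 was lower. Of 10 vessel markers 2 and of 10 macrophage markers 1 were lower. Of the 20 retina, 12 mesenchyme, 6 blood, 6 pigment cell and 8 surface ectoderm markers tested, 0 passed in either direction. Lens fibre, blood and macrophage markers had their highest sums in control replicate 2, at 28152, 1445 and 165 CPM, where the mitosis genes were lowest. Vessel markers summed to 268 to 393 CPM over the libraries, also highest in control replicate 2, with 384 CPM in control replicate 1. Pigment cell markers summed to 69.8 to 341 CPM, and surface ectoderm markers to 51.0 to 208 CPM. The part of these tissues in the levels of the mitosis genes was not tested.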
